A study of Mus musculus with 10 samples.

Results

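The EGF family ligands and ErbB receptors made up 10 of the 35275 genes in the expression table. The set held 7 ligands, Areg, Ereg, Btc, Epgn, Hbegf, Tgfa and Egf, and 3 receptors, Egfr, Erbb2 and Erbb3. It was selected on these data because Areg and Ereg were higher in MYO5B-knockout than in control mice, so the members' values in that comparison are a description and carry no test.

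Jejunal epithelial cells were taken from adult C57BL/6 mice of the genotype VillinCreERT2;MYO5Bflox/flox, labelled male, and their poly(A) RNA was sequenced as bulk samples, 1 library per mouse. All mice carried the same floxed alleles and the same tamoxifen-dependent Cre, which the villin promoter drives in intestinal epithelium and not in the other cells of the wall. The 3 control mice were not induced and were given corn oil in place of tamoxifen. The 4 MYO5B-knockout mice received 2 mg of tamoxifen and then vehicle, and the 3 LPA-treated MYO5B-knockout mice received 2 mg of tamoxifen and then 3 mg/kg of lysophosphatidic acid (LPA), a lipid that acts on G protein-coupled receptors, by ip injection for 4 days. Since control mice were given no tamoxifen, the drug and the loss of MYO5B cannot be told apart, and the description of LPA-treated mouse 1 names vehicle as well as LPA. Both comparisons with control share the same 3 control libraries, and both comparisons with vehicle-treated knockout mice share the same 4 knockout libraries.

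EGF family ligands are made as membrane-anchored precursors, and metalloproteases of the ADAM family cut them free. The released ligand binds EGFR, which pairs with another EGFR, with ERBB2 (a partner that has no known ligand of its own) or with ERBB3 (a partner with little kinase activity), and the pair signals through Ras, ERK and Akt until it is taken up into endosomes and recycled or degraded. In the small intestine this signal supports division of crypt cells and repair of the epithelium. MYO5B is the myosin motor that moves recycling endosomes toward the apical membrane, and its loss causes microvillus inclusion disease.

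Between 10949420 and 24470409 reads lay on genes in each library, and expression is given as FPKM, fragments scaled to gene length and sequencing depth, so levels of different genes can be compared. Myo5b was at 16.5 to 32.0 FPKM in the control libraries, 10.5 to 13.6 in MYO5B-knockout mice and 10.3 to 11.7 in LPA-treated mice. Control mouse 2 and MYO5B-knockout mouse 3 stood apart, with 12242 and 12601 detected genes against 17309 to 18267 in the others, and with 17.4% and 18.0% of reads on mitochondrial genes against 1.98% to 3.50%. Against the label male, Xist was at 8.41 FPKM in knockout mouse 3 and 15.1 FPKM in LPA-treated mouse 1, which had 0 reads on 4 Y-linked genes, and at no more than 0.0524 FPKM in the others. Defining epithelial markers were present in every library, and the sum of 11 of them was 11068 to 11283 FPKM in control, 11495 to 14912 in MYO5B-knockout and 14845 to 16771 in LPA-treated mice. The tests measure the spread between these mice, and in bulk samples fewer cells of a type and less RNA per cell cannot be told apart.

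Areg, which encodes amphiregulin, was the ligand with the highest mean level in each of the 3 groups. It lies on mouse chromosome 5 (GRCm38, chr5:91139615-91148432, plus strand, ENSMUSG00000029378). It was at 12.5, 19.9 and 17.3 FPKM in the control libraries 2, 4 and 5. In MYO5B-knockout mice 3, 5, 6 and 7 it was at 130, 341, 188 and 204 FPKM. All 4 knockout libraries lay above all 3 control libraries, and the ratio of the group means (216 ± 89.1 FPKM, SD, n = 4, against 16.6 ± 3.79, n = 3) was 13.0. The fitted log2 fold change was 3.64 (SE 0.34), or 3.35 above the median change of all tested genes. In LPA-treated mice 1, 4 and 5 Areg was at 342, 531 and 426 FPKM, so that the lowest of these lay just above the highest knockout library. Among all genes ordered by FPKM, Areg stood at rank 3053 to 3322 in control, 247 to 579 in MYO5B-knockout and 182 to 248 in LPA-treated mice.

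Ereg, which encodes epiregulin, a ligand of EGFR and ERBB4, lies on the same strand (chr5:91074617-91093649, ENSMUSG00000029377). It was nearly absent from control libraries, with 2, 9 and 31 reads and 0.0438, 0.141 and 0.428 FPKM in mice 2, 4 and 5. In MYO5B-knockout mice 3, 5, 6 and 7 it was at 8.74, 12.2, 8.37 and 5.36 FPKM, from 396 to 873 reads. Here too the groups did not overlap, and the means (8.68 ± 2.82 and 0.204 ± 0.200 FPKM) differed 42.5 times, while the log2 fold change, which a pseudocount of 0.1 FPKM shrinks at so low a control level, was 5.0 (SE 0.48). Most of the control reads came from mouse 5, and without it the ratio of means was 93.8. Without control mouse 2, the library with few detected genes, it was 30.5, the lowest with any 1 library left out. LPA-treated mice 1, 4 and 5 held Ereg at 13.5, 17.9 and 18.1 FPKM, each above every vehicle-treated knockout library. Although Ereg had the larger fold change, its mean level in knockout mice stayed well under that of Areg.

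Btc, which encodes betacellulin, another ligand of EGFR and ERBB4, lies on the opposite strand (chr5:91357261-91402994, ENSMUSG00000082361). It was at 0.756, 1.38 and 1.31 FPKM in the control libraries and at 5.91, 15.0, 6.72 and 4.30 FPKM in the knockout libraries 3, 5, 6 and 7. Knockout and control libraries did not overlap (ratio of means 6.95, log2 fold change 2.57, SE 0.48). In LPA-treated mice 1, 4 and 5 Btc was at 17.0, 18.0 and 8.74 FPKM, and the library of mouse 5 lay within the knockout range.

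Epgn, which encodes epigen, completes this group of neighbours (chr5:91027464-91035215, plus strand, ENSMUSG00000035020). It had 0, 2 and 2 reads in the control libraries and 0, 3, 2 and 1 in the MYO5B-knockout libraries 3, 5, 6 and 7, where a count of 0 allows up to 0.154 FPKM in control mouse 2 and 0.156 in knockout mouse 3. The libraries of LPA-treated mice 1, 4 and 5 counted 10, 6 and 7 reads, or 0.232, 0.197 and 0.298 FPKM. No fold change against control is given for vehicle-treated mice, because both groups were at or under that limit. Epgn passed the filter on low values (a mean of 0.1 FPKM) only through the LPA-treated libraries.

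**Figure D1:**
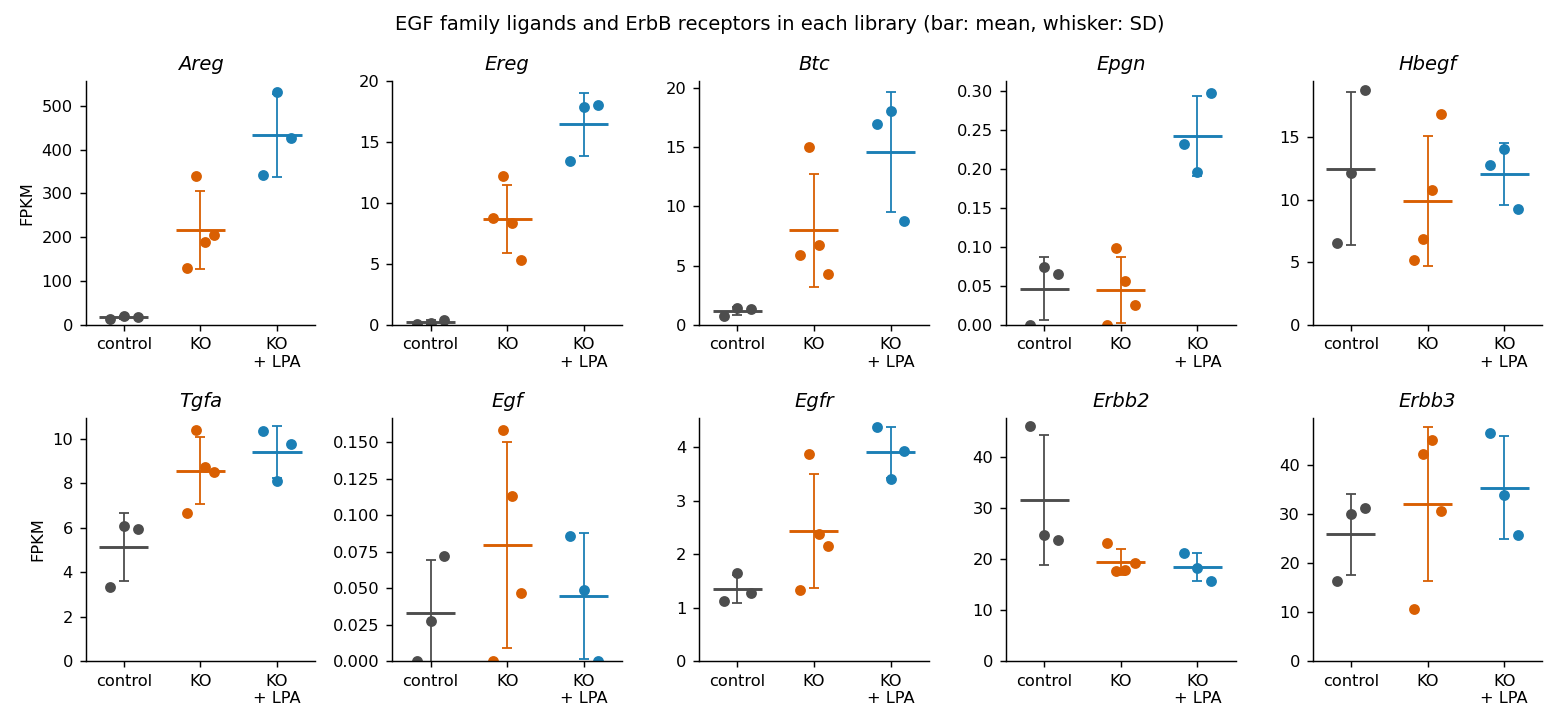
Expression of the 10 family members in each library, in FPKM on a linear axis from 0, for 3 control, 4 MYO5B-knockout (KO) and 3 LPA-treated MYO5B-knockout mice (KO + LPA). Points are mice, bars are means and whiskers SD, cut off at 0. Areg, Ereg, Btc and Tgfa were higher in every knockout than in every control library, and Erbb2 was lower.

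These 4 ligand genes form a block of 376 kb with no other listed gene between them. The gaps were 39.4 kb from Epgn to Ereg, 46.0 kb from Ereg to Areg and 209 kb from Areg to Btc. The 250 bases before the RefSeq start (GRCm38.p6) are shown for the 3 genes of the block that had an entry, so that the start regions of a ligand that was high (Areg), intermediate (Btc) and near 0 (Epgn) can be read side by side. Capitals mark matches, on either strand, to TATAAA (a core promoter box), TGACGTCA (CRE), TGANTCA (AP-1), GGAATG (TEAD), CTTTGAT (TCF) or GGGCGG (GC box). The windows are chr5:91139349-91139598 (plus strand) for Areg, chr5:91402995-91403244 (minus strand) for Btc and chr5:91027267-91027516 (plus strand) for Epgn.
Areg: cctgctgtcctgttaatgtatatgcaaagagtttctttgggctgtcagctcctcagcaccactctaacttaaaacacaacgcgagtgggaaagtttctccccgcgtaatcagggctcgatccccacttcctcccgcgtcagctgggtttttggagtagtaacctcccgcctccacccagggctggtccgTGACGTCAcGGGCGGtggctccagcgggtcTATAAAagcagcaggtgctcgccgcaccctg
Btc: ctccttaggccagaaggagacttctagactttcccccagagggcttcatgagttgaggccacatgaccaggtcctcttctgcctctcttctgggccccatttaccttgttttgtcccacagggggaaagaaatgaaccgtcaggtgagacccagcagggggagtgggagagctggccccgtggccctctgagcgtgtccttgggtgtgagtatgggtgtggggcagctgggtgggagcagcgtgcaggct
Epgn: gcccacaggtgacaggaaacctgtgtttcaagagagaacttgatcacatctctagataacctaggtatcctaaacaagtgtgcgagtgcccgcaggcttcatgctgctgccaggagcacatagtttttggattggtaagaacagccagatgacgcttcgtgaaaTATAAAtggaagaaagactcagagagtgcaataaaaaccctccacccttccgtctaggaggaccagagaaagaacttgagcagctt
The Areg window held TATAAA starting 31 bases before the start, GGGCGG at 52 and TGACGTCA at 61. The Epgn window held TATAAA at 86 bases, and the Btc window held none of the motifs. These distances are from the RefSeq starts. The Epgn gene as given above starts at 91027464, inside its window. Its 86 bases thus depend on the start used and cannot be set against the 31 of Areg. Of 32851 RefSeq windows of this length, 12.4% held TATAAA, 32.7% GGGCGG, 1.55% TGACGTCA, 6.75% TGANTCA, 12.6% GGAATG and 3.21% CTTTGAT. Of all 10 members, 7 had an entry, and Ereg, Hbegf and Erbb3 had none. These matches describe letters and not bound factors.

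Around the block, 15 genes lay within 500 kb of Areg or Ereg, and 10 of them, the 4 ligands included, had a mean of at least 0.1 FPKM. The other 6 were Rassf6, Pf4, Cxcl1, Cxcl2, Mthfd2l and Parm1. With all libraries, none of these 6 passed limma's test between MYO5B-knockout and control mice, with adjusted p between 0.253 (Parm1) and 0.987 (Cxcl1). Parm1, a mucin-like membrane protein gene beyond Btc, had the largest of their log2 fold changes at 0.89 (SE 0.37), and Mthfd2l, next to Epgn, was at 0.47 (SE 1.11). Without control mouse 2 and knockout mouse 3, Parm1 was at 1.14 and passed (adjusted p = 0.0479 by limma), where 4.95% of all tested genes did. In LPA-treated mice every Parm1 value lay above every control value (log2 fold change 1.48, adjusted p = 0.0890 by limma and 0.00279 by DESeq2). Between LPA-treated and vehicle-treated knockout mice, the chemokine gene Cxcl1 was at 0.943, 0.849 and 0.787 FPKM against 0 to 0.419 FPKM, a log2 difference of 2.09 (SE 0.68, unadjusted p = 0.0107, adjusted p = 1 by limma). Pf4, a platelet chemokine gene, was at 0.139, 1.48 and 6.15 FPKM in the LPA-treated libraries 1, 4 and 5, so its group mean rested on mouse 5.

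**Figure D2:**
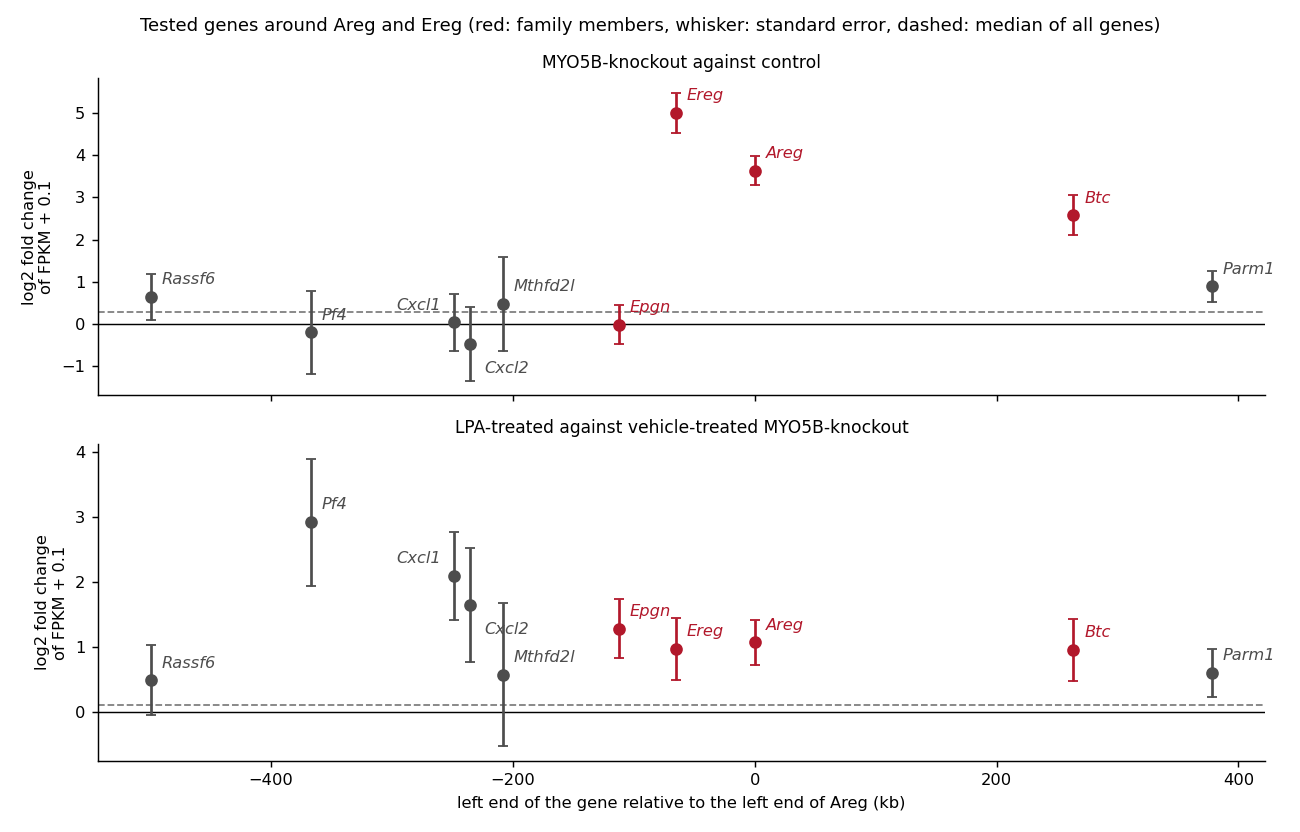
Log2 fold changes with standard errors of the 10 tested genes around Areg and Ereg, by distance from the left end of Areg in kb. The distance is that of the left end for plus-strand genes. For the minus-strand genes Btc and Rassf6 it is that of the right end, although the axis names left ends. Red points are family members, grey points other genes, and the dashed line is the median of all tested genes. In MYO5B-knockout against control mice Ereg (5.0), Areg (3.64) and Btc (2.57) stood above the other genes of the region. The fitted value of Epgn, between Mthfd2l and Ereg, did not, at no more than 3 reads per library in those groups.

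The remaining ligands lie elsewhere in the genome. Hbegf, which encodes heparin-binding EGF-like growth factor, was at 6.56, 12.1 and 18.8 FPKM in the control libraries 2, 4 and 5 and at 5.16, 6.84, 10.8 and 16.9 FPKM in the knockout libraries. These ranges overlapped almost completely, and the log2 fold change was -0.35 (SE 0.47). LPA-treated libraries were at 12.8, 14.0 and 9.27 FPKM, within the range of both other groups. Against control, the sign of the Hbegf change in LPA-treated mice depended on the scaling, with 0.05 as deposited and -0.32 after median-ratio scaling.

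Tgfa, which encodes transforming growth factor alpha, an EGFR ligand made by epithelial cells, was at 3.36, 6.07 and 5.96 FPKM in the control libraries. It was at 6.67, 10.4, 8.74 and 8.50 FPKM in the knockout libraries and at 10.4, 8.10 and 9.80 FPKM in those with LPA. Every knockout library lay above every control library, by a ratio of means of 1.67, whereas vehicle-treated and LPA-treated mice overlapped. Egf itself was close to the limit of detection, with 0 to 6 reads in control, 0 to 13 in MYO5B-knockout and 0 to 10 in LPA-treated libraries and no more than 0.158 FPKM in any library. It fell under the filter on low values and was not tested, and 0 reads in control mouse 2 allowed up to 0.0571 FPKM.

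The makeup of the ligand transcripts differed between groups as the levels did. Summed over the 7 ligands, expression was 23.2, 39.7 and 43.9 FPKM in the control libraries 2, 4 and 5, then 157, 386, 223 and 239 FPKM in the knockout libraries and 396, 589 and 472 FPKM in those with LPA. Areg made up 53.7%, 50.2% and 39.4% of that sum in control mice, and Hbegf 28.3%, 30.5% and 42.8%, so that Hbegf was above Areg in control mouse 5. In MYO5B-knockout mice the Areg share was 83.1% to 88.4%, and in LPA-treated mice it was 86.4% to 90.2%. Hbegf, whose own level overlapped between the groups, made up 1.78% to 7.05% in knockout libraries. Ereg was 0.189% to 0.975% of the sum in control and 2.24% to 5.57% in knockout libraries.

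**Figure D3:**
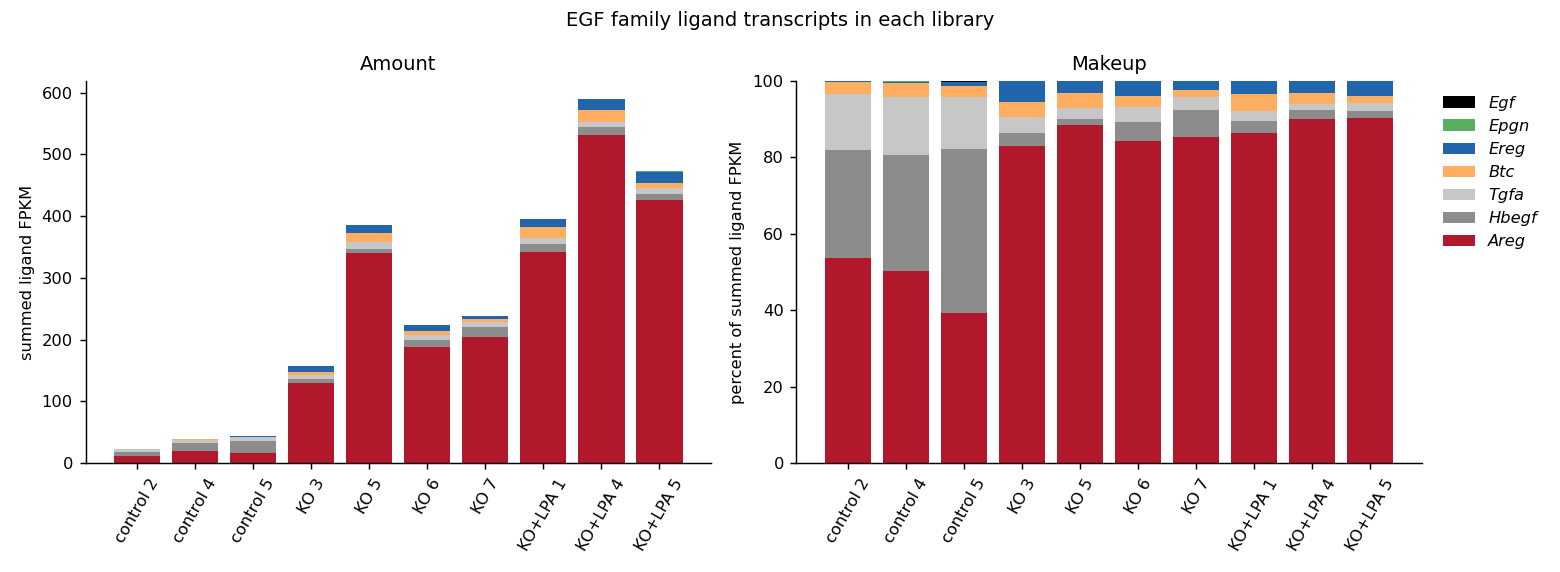
Summed FPKM of the 7 EGF family ligands in each library (left) and the share of each ligand in percent (right), as stacked bars from 0. Areg made up 39.4% to 53.7% of the sum in the control libraries and 83.1% to 90.2% in the 7 libraries from induced mice.

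The receptors had smaller fold changes against control than Areg, Ereg and Btc. Egfr (chr11:16752203-16918158, plus strand, ENSMUSG00000020122) was at 1.14, 1.64 and 1.27 FPKM in the control libraries and at 1.33, 3.87, 2.37 and 2.15 FPKM in the knockout libraries 3, 5, 6 and 7. Knockout mouse 3 lay within the control range and the other knockout mice above it. LPA-treated mice 1, 4 and 5 held 4.37, 3.40 and 3.93 FPKM, all above the controls and partly within the knockout range. The log2 fold changes against control were 0.73 (SE 0.42) without and 1.47 (SE 0.45) with LPA, given as values only because the groups share control libraries with the selection.

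Erbb2 (chr11:98412470-98437716, plus strand, ENSMUSG00000062312), the partner without a ligand, was the receptor with the most transcripts in control mice on average, at 46.2, 24.7 and 23.7 FPKM. It was at 23.1, 17.7, 17.9 and 19.3 FPKM in the knockout libraries and at 21.2, 18.3 and 15.8 FPKM in those with LPA. Each knockout library lay below each control library, but the control mean rested on mouse 2, the library with few detected genes. With all libraries the log2 fold change was -0.63 (SE 0.29), and it was -0.40 without control mouse 2 and knockout mouse 3. Erbb2 overlaps Mien1 on the other strand, which had 13.2% as many reads, and no source states that the counting used strand.

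Erbb3 (chr10:128567523-128589652, minus strand, ENSMUSG00000018166) was at 16.4, 30.0 and 31.3 FPKM in the control libraries, 10.6, 42.3, 45.1 and 30.7 FPKM in the knockout libraries and 46.6, 33.9 and 25.8 FPKM in those with LPA. All 3 groups overlapped. Its lowest values were those of control mouse 2 and knockout mouse 3, and its sign against control depended on the scaling, with a log2 fold change of 0.17 (SE 0.50) as deposited and -0.12 after median-ratio scaling. Summed over the 3 receptors, expression was 56.3 to 63.7 FPKM in control, 35.1 to 65.4 in MYO5B-knockout and 45.5 to 72.2 in LPA-treated mice. The ErbB4 receptor gene, which was not counted among the members, had 0 reads in 8 of 10 libraries and at most 11 reads in the others (0.0144 and 0.0686 FPKM in the LPA-treated libraries 4 and 5), where a count of 0 allows up to 0.0102 to 0.0228 FPKM.

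In order of mean level, control mice had Erbb2, Erbb3, Areg, Hbegf, Tgfa, Egfr, Btc, Ereg, Epgn and Egf. Within the first 4 of these each overlapped with its neighbour, Hbegf did not overlap with Tgfa, and there was overlap of Egfr with Btc, Ereg with Epgn and Epgn with Egf. In MYO5B-knockout mice Areg led, with no overlap with Erbb3 in second place, while Hbegf, Ereg, Tgfa and Btc lay so close, at means of 9.91, 8.68, 8.57 and 7.98 FPKM, that each overlapped with the next. LPA-treated mice had the order Areg, Erbb3, Erbb2, Ereg, Btc, Hbegf, Tgfa, Egfr, Epgn and Egf, where Erbb2 to Tgfa overlapped from neighbour to neighbour.

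Counted by overlap alone, 4 of 10 members (Areg, Ereg, Btc and Tgfa) were higher and 1 (Erbb2) was lower in every MYO5B-knockout than in every control library. Of all 15729 tested genes, 11.0% were higher in this sense and 6.20% lower, and 2.01% passed an adjusted p of 0.05 in either direction by limma. Nothing is read from the members' counts, since the comparison was the one that selected them. Without control mouse 2 and knockout mouse 3, Egfr joined the members that were higher, making 5. Erbb2 stayed lower, since leaving out libraries cannot make separate groups overlap. In LPA-treated mice 6 members (with Egfr added, and Epgn, which passed the filter only through these libraries) were higher than in every control library and 1 was lower, where 20.5% and 6.38% of all tested genes were, and 2.32% passed the adjusted p in either direction. The median log2 change against control of the 8 tested members other than Epgn was 0.74 without and 1.19 with LPA, beside 0.29 and 0.41 over all tested genes. Median-ratio scaling moved the median of all genes in knockout mice from 0.29 to 0.04 and turned the split of called genes from 177 higher and 139 lower to 223 higher and 375 lower.

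The levels of marker genes of several cell types were summed in each library, and no sum was tested. The sum of 10 proliferation markers was 93.1 to 128 FPKM in control and 219 to 357 FPKM in the knockout libraries, and 157 to 274 FPKM in those with LPA. The sum of 9 enterocyte markers was 18085 to 27559 FPKM in control, 9764 to 19067 in knockout and 16941 to 31754 in LPA-treated mice. That of 9 Paneth cell markers was 4191 to 10768, 3806 to 6806 and 1157 to 4484 FPKM in the same order. Leukocytes, which can also make amphiregulin, were represented by 15 markers whose sum was 62.7 to 80.3 FPKM in control, 13.7 to 51.6 in knockout and 28.4 to 96.8 in LPA-treated mice. No marker of any list was at 0 in all libraries. The enterocyte and Paneth cell ranges overlapped between all groups. Whether cell makeup differed, and what part it had in the ligand levels, was not tested.

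The comparison of LPA-treated with vehicle-treated MYO5B-knockout mice asks whether LPA changes expression once MYO5B is lost. It was not the comparison used for the selection, and here the members were tested. It shares the knockout libraries with the selection, so these tests and intervals are not independent of it. None of the 8 tested members other than Epgn passed, with adjusted p = 1 for each by limma over 15729 genes. No gene of the table passed either (0% called). By limma 459 of 15729 had an unadjusted p under 0.05, a smaller share than the 0.05 that chance gives on average. By edgeR 0 genes were called, and 7, none of them a member, by DESeq2. For Areg the group means were 433 ± 94.6 FPKM (SD, n = 3) with LPA and 216 ± 89.1 (n = 4) with vehicle, a ratio of 2.01. Its log2 difference was 1.07 (SE 0.34), with a 95% interval from 0.30 to 1.83 and an unadjusted p of 0.0107 by limma. Ereg differed by 0.96 (interval -0.10 to 2.03, unadjusted p = 0.0714 by limma) and Btc by 0.95 (-0.10 to 2.01, unadjusted p = 0.0719 by limma). For all 3 the intervals reach a doubling, so the data do not show that LPA left them unaltered.

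Epgn had 23 reads over the 3 LPA-treated and 6 over the 4 vehicle-treated libraries, a ratio of rates of 4.95 with reads pooled over mice. The ratio of its group means was 5.40. With any 1 library left out it ran from 4.05 (without knockout mouse 3) to 9.01 (without knockout mouse 5). No p or interval is given for this difference, because Epgn entered the tested genes only through the group in which it was high. Egfr was next with 0.75 (interval -0.19 to 1.68), followed by Hbegf with 0.40 (-0.64 to 1.44), Erbb3 with 0.29 (-0.81 to 1.39) and Tgfa with 0.14 (-0.56 to 0.85). Erbb2 was at -0.08 (-0.74 to 0.57). Without knockout mouse 3 the difference of Erbb3 turned to -0.17. With any 1 library left out, the differences of Areg and Ereg were 0.85 to 1.32 and 0.75 to 1.15. Their signs could not turn, since their values did not overlap between the groups.

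By overlap, Areg and Ereg were higher in every LPA-treated than in every vehicle-treated knockout library, and 0 members were lower. Epgn lay higher too but is not counted, since the filter on low values chose it for its level with LPA. Over all tested genes 3.56% were higher and 0.604% lower in this sense. Areg and Ereg also stood apart without knockout mouse 3 and LPA-treated mouse 1. That outcome was fixed, since leaving out libraries cannot make separate groups overlap. For Areg the gap between the groups was narrow, since the highest vehicle-treated library was at 341 and the lowest LPA-treated library at 342 FPKM. The median log2 difference of the 8 tested members other than Epgn was 0.57, beside 0.11 over all tested genes. The sum of 12 stroma and endothelium markers was 3.18 to 5.51 FPKM in vehicle-treated and 6.76 to 14.5 FPKM in LPA-treated knockout mice, and its part in these differences was not tested.

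**Figure D4:**
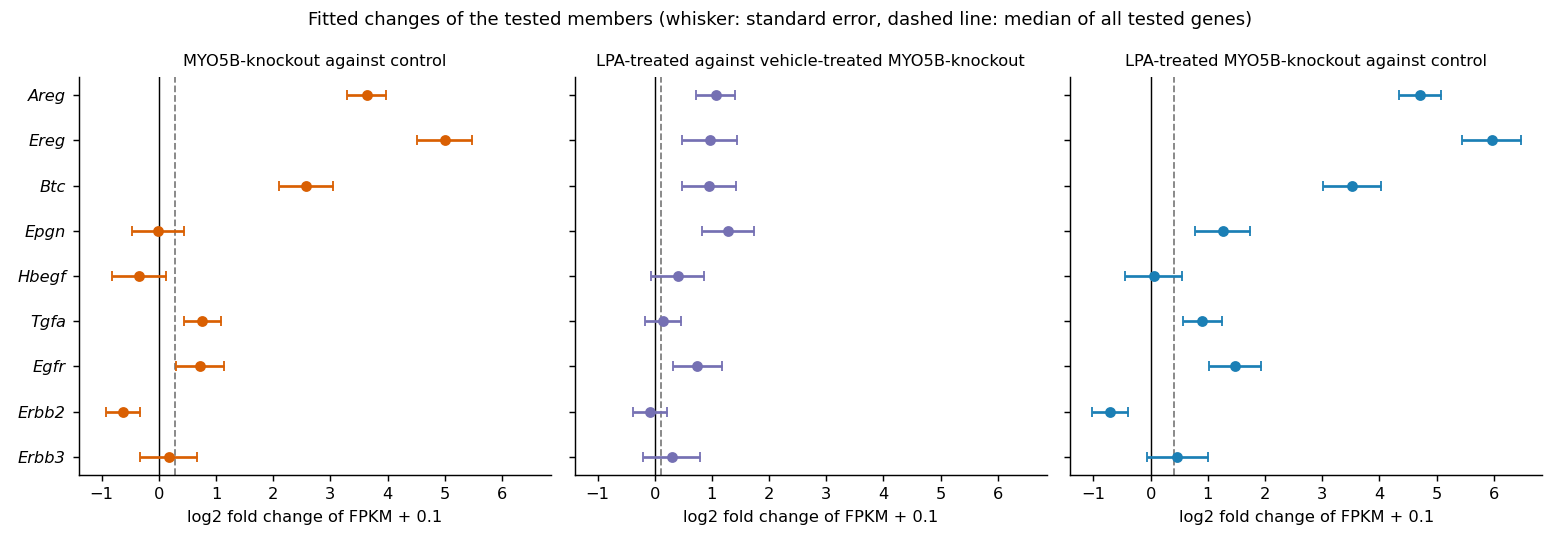
Log2 fold changes of FPKM + 0.1 with standard errors for the 9 tested members in the 3 comparisons (4 MYO5B-knockout, 3 control and 3 LPA-treated mice). The dashed line is the median of all tested genes (0.29, 0.11 and 0.41 from left to right). Areg, Ereg and Btc lay far above it against control, and the differences between LPA-treated and vehicle-treated knockout mice were 1.07 or less apart from Epgn, which passed the filter on low values only through the LPA-treated libraries.

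Of the other ligands and the receptor left out of the set, all but Nrg4 were rare. The control mean of Nrg4, 1.39 FPKM, was near that of Egfr (1.35 FPKM). Neuregulins signal through ERBB3 and ERBB4. Of Nrg1, Nrg2, Nrg3, Nrg4 and Erbb4, 2 genes (Nrg1 and Nrg4) reached a mean of 0.1 FPKM. Nrg4 passed in no comparison by limma or by edgeR, with an unadjusted p of 0.0340 by limma in MYO5B-knockout against control mice. Beside the limma shares above, edgeR called 2.82% of all tested genes in MYO5B-knockout and 2.40% in LPA-treated against control mice, and DESeq2 called 11.6% in the former and 0.0445% between the knockout groups. DESeq2 called Nrg4 lower in the knockout than in the control group. Nrg4, an epithelial neuregulin, was at 1.30, 0.992 and 1.88 FPKM in the control libraries and 0, 0.637, 0.514 and 0.402 FPKM in the knockout libraries. The groups did not overlap, yet the log2 fold change of -1.90 (SE 0.78) had an adjusted p of 0.242 by limma. Nrg1, which is mostly a stromal ligand, had 37 reads over the LPA-treated and 3 over the vehicle-treated knockout libraries, a ratio of rates of 15.9. Like Epgn it passed the filter on low values only through the LPA-treated libraries, so no p or interval is given.

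Ligand release was represented by 14 genes, of which 11 were tested. By limma and by edgeR 0 of 11 passed in each of the 3 comparisons, with 1, 0 and 2 genes at an unadjusted p under 0.05 by limma, and DESeq2 called Adam15 and Adam19 lower in the knockout than in the control group. Adam17, the sheddase of Areg, Ereg and Tgfa, had a log2 fold change of 0.50 in MYO5B-knockout against control mice (5.45 ± 2.17 against 3.70 ± 1.31 FPKM, adjusted p = 0.622 by limma). Adam10, the sheddase of Btc and Egf, was at 0.56 (adjusted p = 0.606 by limma). Rhbdf2, the rhomboid-like protein that carries ADAM17 to the cell surface, was at 9.60 ± 2.13 FPKM in control and 12.8 ± 2.74 FPKM in knockout mice. The smallest adjusted p in the list belonged to Adam15, a metalloprotease of the same family, which was at 8.30, 5.31 and 5.85 FPKM in control and 3.29, 2.07, 1.73 and 2.58 FPKM in knockout mice (log2 fold change -1.40, SE 0.39, adjusted p = 0.093 by limma). Adam19 (-1.0) and Rhbdf1 (1.15) followed. The median of the list was 0.56, beside 0.29 over all genes.

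Genes that dampen ErbB signalling were represented by 20 tested genes, and 1 of them, Spry4, rose in MYO5B-knockout mice while 0 fell, where 2.01% of all tested genes were called, so the count says little about the list. Spry4, a Sprouty protein that inhibits Ras and ERK and is itself switched on by ERK, was at 0.138, 0.142 and 0.0374 FPKM in control and 1.06, 2.17, 1.22 and 0.976 FPKM in knockout mice (log2 fold change 2.80, SE 0.50, adjusted p = 0.0243 by limma). With LPA it was at 1.85, 1.5 and 0.900 FPKM, again the 1 gene of 20 called against control, and leaving out any of 6 of the 10 libraries ended that call (adjusted p from 0.0518 to 0.110 by limma). Without LPA the call was lost without control mouse 4 (adjusted p = 0.076 by limma), control mouse 5 (0.121), knockout mouse 5 (0.0832) or knockout mouse 6 (0.0706). Spry1, of the same family, was at 0, 1.41 and 1.19 FPKM in control and 2.80, 5.04, 4.08 and 2.81 FPKM in knockout mice and did not pass (2.66, SE 0.82, adjusted p = 0.125 by limma). Spred1 had a log2 fold change of 1.55 (adjusted p = 0.18 by limma).

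Feedback genes that act on the receptor itself did not pass by limma or by edgeR. Errfi1, which binds and blocks the EGFR kinase, was at 9.88, 21.9 and 28.0 FPKM in control and 23.9, 49.2, 44.3 and 31.5 FPKM in the knockout libraries (log2 fold change 0.97, adjusted p = 0.24 by limma). Lrig1, a membrane protein of crypt stem cells that targets ErbB receptors for degradation, was at 0.73 (adjusted p = 0.795 by limma), and the ubiquitin ligase gene Cblc at -0.48 (0.383). The phosphatase gene Dusp5, which acts on ERK in the nucleus, was at 2.27, 12.7 and 16.3 FPKM in control, 14.3, 36.1, 19.8 and 21.2 FPKM in knockout and 39.3, 46.9 and 41.5 FPKM in those with LPA. Its LPA-treated libraries all lay above its vehicle-treated ones, with a log2 difference of 0.97 (unadjusted p = 0.131 by limma). The list's median was 0.58 against control, and without control mouse 2 and knockout mouse 3 the count was 3 of 20, with Spred1 and Spry1 added, where 4.95% of all tested genes were called. With LPA this setting called Dusp5, Spry1 and Spry4, beside 1346 of all 15729 genes. DESeq2 with all libraries called Spred1, Spry1 and Spry4 in MYO5B-knockout against control mice, beside 11.6% of all tested genes. With LPA it called 5 of 20 (Dusp5, Errfi1, Spred1, Spry1 and Spry4), beside 1489 of all 15729 genes.

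The relay behind the receptors, 29 tested genes from adaptors to Ras, Raf, MEK, ERK, PI3K and Akt, had 0 calls in each comparison by limma, with 3 genes at an unadjusted p under 0.05 in MYO5B-knockout against control mice, 0 between the knockout groups and 4 in LPA-treated against control mice. The median log2 fold change in knockout mice was 0.25, beside 0.29 over all genes. Gab1, a docking protein that links EGFR to PI3K, was at 5.80, 5.05 and 6.71 FPKM in control and 2.89, 2.59, 2.78 and 2.06 FPKM in knockout mice, without overlap (log2 fold change -1.15, SE 0.33, adjusted p = 0.102 by limma). It was called lower by edgeR (adjusted p = 0.0498) and DESeq2 (0.00379), which also called Araf lower. Nras was at 11.1, 11.0 and 12.1 FPKM in control, 22.9, 20.3, 17.8 and 15.9 FPKM in knockout and 23.4, 23.6 and 25.9 FPKM in those with LPA, so its 3 groups were ordered without overlap (0.74, SE 0.24, adjusted p = 0.14 by limma). Braf had the largest change of the list (1.85) with a standard error of 0.83.

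Receptor uptake and sorting, the step nearest to the known role of MYO5B in recycling endosomes, was represented by 12 genes, of which 11 were tested. By limma and by edgeR 0 of 11 passed in each comparison, with 1, 0 and 2 genes at an unadjusted p under 0.05 by limma, and DESeq2 called Cd2ap higher in MYO5B-knockout than in control mice. Cd2ap, an endocytic adaptor that works with the CBL ubiquitin ligases, had a log2 fold change of 0.85 (36.0 ± 8.01 against 20.8 ± 8.07 FPKM, adjusted p = 0.219 by limma). Stam2 and Stam, subunits of the complex that sorts ubiquitinated receptors on endosomes, were at 0.91 and 0.80, and their partner Hgs at -0.12. The median of the list was 0.54.

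Of 12 transcripts that ERK is known to induce, 3 rose in MYO5B-knockout mice (Plaur, Etv4 and Etv5) and 0 fell, beside 2.01% of all tested genes called. With LPA 4 were above control (Plaur, Etv4, Phlda1 and Egr1), beside 2.32%. The list was chosen with earlier results of these data known, so its counts are a description. By edgeR 2 of 12 were called in both comparisons with control, Plaur and Etv4. DESeq2 called 4 of 12 without LPA (Etv4, Etv5, Fosl1 and Plaur), beside 11.6% of all tested genes. With LPA it called 6 of 12, adding Egr1 and Phlda1, beside 1489 of all 15729 genes. No list in the comparison of LPA-treated with vehicle-treated knockout mice had a gene called by any of the 3 tools. Plaur, the receptor of the urokinase plasminogen activator, was at 1.17, 2.00 and 1.72 FPKM in control and 27.6, 29.6, 21.5 and 32.4 FPKM in knockout mice (log2 fold change 4.03, SE 0.30, adjusted p = 0.000292 by limma). LPA-treated mice held 51.4, 81.1 and 55.5 FPKM, all above the vehicle-treated ones, with a log2 difference of 1.16 (SE 0.30, unadjusted p = 0.00275, adjusted p = 1 by limma). Its call against control held when any 1 library was left out.

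Etv4 and Etv5 encode ETS factors of the PEA3 group, whose transcription follows ERK activity in many tissues. Etv4 was at 0.945, 0.624 and 0.334 FPKM in control, 11.6, 16.9, 6.44 and 3.72 FPKM in MYO5B-knockout and 12.5, 5.55 and 11.8 FPKM in those with LPA (3.60, SE 0.57, adjusted p = 0.0146 by limma against control without LPA). The call was lost without control mouse 4 (adjusted p = 0.0591 by limma) or control mouse 5 (0.0863), and the call with LPA without control mouse 5, LPA-treated mouse 1 or LPA-treated mouse 5 (0.0605 to 0.0747). Etv5 was at 0, 0.425 and 0.273 FPKM in control and 1.52, 2.82, 2.51 and 1.72 FPKM in knockout mice (3.01, SE 0.64, adjusted p = 0.0448 by limma). It had so little margin that leaving out any 1 of the 10 libraries ended its call, with adjusted p from 0.0509 to 0.144 by limma.

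Egr1, an immediate early gene, was at 1.57, 1.43 and 1.44 FPKM in control, 4.93, 4.70, 2.59 and 2.34 FPKM in MYO5B-knockout and 6.90, 5.44 and 7.55 FPKM in those with LPA, so that its 3 groups were ordered without overlap. It passed with LPA (2.08, SE 0.41, adjusted p = 0.0316 by limma) and did not pass without (1.17, SE 0.38, adjusted p = 0.147 by limma). Phlda1 had log2 fold changes of 1.49 without and 2.26 with LPA. Leaving out any of 6 of the 10 libraries ended the call of Egr1 (adjusted p from 0.0538 to 0.137 by limma), and any of 8 that of Phlda1 (0.0657 to 0.206). Under median-ratio scaling neither Egr1 (adjusted p = 0.0893 by limma) nor Phlda1 (0.183) passed with LPA. Other members of the list did not pass by limma in MYO5B-knockout mice, among them Fos (-0.90), Myc (0.58), Ccnd1 (1.28) and Ier3 (0.22). The list's median was 1.22 in knockout mice beside 0.29 over all genes, and 0.67 between LPA-treated and vehicle-treated mice beside 0.11. Without knockout mouse 3 and LPA-treated mouse 1, 2 of 12 genes passed in each comparison with control, beside 2.01% and 1.93% of all tested genes.

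**Figure D5:**
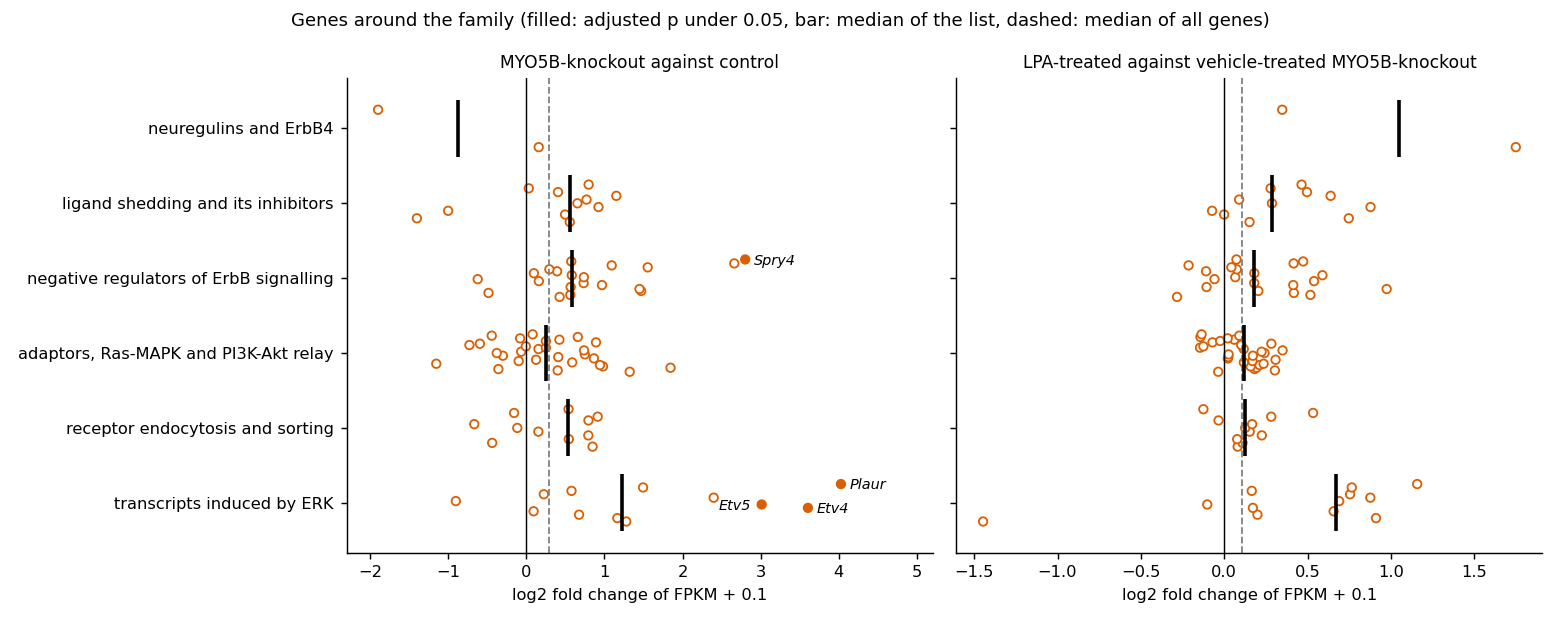
Log2 fold changes of FPKM + 0.1 for the tested genes of 6 lists around the family, in MYO5B-knockout against control mice (left) and LPA-treated against vehicle-treated knockout mice (right, on a narrower axis). Filled points passed an adjusted p of 0.05 by limma, black bars are list medians and the dashed line is the median of all tested genes. Filled points are Spry4, Plaur, Etv4 and Etv5, all on the left. The lists were chosen with earlier results of these data known. Nrg1, the neuregulin farthest right on the right, passed the filter on low values only through the LPA-treated libraries, and the ERK-induced transcripts had the highest median on the left (1.22).

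The patterns of Areg and Ereg over the 10 libraries were compared with those of 10574 genes that had a mean of at least 1 FPKM, by Pearson's r of log2(FPKM + 0.1). This is a description only, since the libraries fall into 3 groups whose differences set most of r, and members were selected for that difference. The genes most like Areg were Tead4 (0.992), Galnt3 (0.989), Elovl7 (0.988), Plaur (0.988) and Anxa3 (0.986). Tead4 encodes a transcription factor of the Hippo pathway and was at means of 0.0194, 1.40 and 3.22 FPKM in control, MYO5B-knockout and LPA-treated mice. For Ereg they were Anxa10 (0.991), S100a5 (0.987), Fam102b (0.986), Paqr8 (0.985) and Anxa3 (0.983), and Anxa10, an annexin known from gastric epithelium, was at means of 0.0433, 30.6 and 64.5 FPKM. Anxa3 stood in both lists.

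Within the family, Ereg was rank 14 and Btc rank 27 among the genes most like Areg, and Areg was rank 11 and Btc rank 44 among those most like Ereg. Tgfa stood at rank 377 for Areg and 417 for Ereg, and Egfr at 411 and 959. Hbegf, in contrast, was at rank 7702 and 7750, and Erbb2, which was lower in knockout mice, near the end at 10344 and 10334. The 3 ligands of the chromosome 5 block that were high in knockout mice thus had like profiles over the libraries. Of the ligands elsewhere, Tgfa had an r of 0.870 with Areg and 0.867 with Ereg, and Hbegf of -0.0155 and -0.0570. Epgn, also in the block, had a mean under 1 FPKM and was not compared. A link between likeness and location was not tested.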

How the data were processed

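Bulk RNA-seq of jejunal epithelial cells was analysed from 10 mice (3 control, 4 MYO5B-knockout, 3 LPA-treated MYO5B-knockout), grouped by their titles. The authors deposited FPKM values for each library with gene lengths and GRCm38/mm10 coordinates, and counts for 9 genes. The submitters' processing notes name STAR 2.5, TopHat, HTSeq 0.6.1 and DESeq2 without roles. Deposited columns with the authors' own fold changes and p-values, in an enrichment table and an LPA table, were not used. FPKM times length gave whole reads for 100% of values (within 0.01), and 63 of 63 deposited counts equalled them. Depth was 10949420 to 24470409 reads on genes. Ratios of rates pool the reads of a group over its mice, and limits from 3 reads cover counting error only.

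The 15729 genes whose mean reached 0.1 FPKM were tested on log2(FPKM + 0.1) with limma 3.58.1 (R 4.3.3) over all 3 groups, with Benjamini-Hochberg adjustment at 0.05, and this pseudocount understates changes of low genes. The unit and the recovered reads also allowed edgeR 4.0.16 and DESeq2 1.42.0 as alternatives, beside other pseudocounts, filters, scalings, a replicate block and left-out libraries. The code was tested on simulated data. Members and gene lists were chosen with earlier results of these data known. The genes named were all members, the 3 genes of each list with the smallest p between MYO5B-knockout and control mice, the 5 genes most like Areg and Ereg, and neighbours within 500 kb with a mean of at least 0.1 FPKM. Adam17, Adam10, Rhbdf2, Hgs and other list genes were named for their roles, after their values were seen. Replicate numbers did not pair the mice.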

Additional observations from a re-analysis of the deposited data

Results flagged for a closer look

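Of 38 quantities examined in the group of 4 MYO5B-knockout mice, 2 had a mouse far from the others, and chance alone flags about 1 in 20. Both concerned knockout mouse 3, which had 12601 detected genes against 18233 to 18267 in the other knockout mice, and 18.0% of reads on mitochondrial genes against 2.06% to 2.53%. None of the 10 family members was among the quantities with such a mouse. Without control mouse 2, which had like values, and knockout mouse 3, the log2 fold changes against control were 3.66 for Areg, 4.54 for Ereg and 2.41 for Btc.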

How the results depend on the processing

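Against control, the changes of Areg, Ereg and Btc kept their direction in MYO5B-knockout and LPA-treated mice under each of 21 alternatives. Those that only left out libraries could not turn it, since the groups did not overlap. Over the 9 tested members 179 of 188 alternative values in knockout mice and 172 of 188 in LPA-treated mice moved by less than the spread between mice, and between the knockout groups 188 of 188 stayed uncalled. These counts include Epgn, which passed the filter on low values only through the LPA-treated libraries, so nothing is read from its values. The size for Ereg depended on the pseudocount, with a log2 fold change of 2.97 at 1 FPKM and 5.77 at 0.01 FPKM in place of 5.0. The number of genes called between MYO5B-knockout and control mice (316) was 188 with no filter on low values, 598 with median-ratio scaling, 804 with quantile normalization, 778 without control mouse 2 and knockout mouse 3, 1830 by DESeq2 and 44 to 403 with any 1 library left out, and it was lowest without control mouse 5 and highest without knockout mouse 3. For LPA-treated against control mice (365) it was 626 with quantile normalization, 1346 without control mouse 2 and knockout mouse 3, 1489 by DESeq2 and 73 to 702 with any 1 library left out, lowest without LPA-treated mouse 5 and highest without knockout mouse 3. Between the knockout groups DESeq2 called 7 genes in place of 0. The causes were not tested. Mice of different groups that share a number had correlations of their deviations from -0.36 to 0.30, so the numbers were not taken to pair them. A fit with the number as a replicate block, which left 1 residual degree of freedom, called 0 genes in each comparison. At 10949420 reads, the lowest depth, Epgn and Egf were near 0 reads, and no change in them could be detected between control and vehicle-treated knockout mice.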
